A study of Homo sapiens with 6 samples.

Results

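The phase II conjugation enzymes are the proteins that attach a polar group to drugs, hormones, bile acids and other small molecules. They were read here from RNA-seq of HepG2 cells as every gene whose symbol begins with UGT and a digit, SULT and a digit, or GST followed by A, K, M, O, P, T or Z and a digit. Symbols ending in P, P1 or P2 that mark pseudogenes were to be left out, which applied to 0 genes, and *GSTT2*, annotated as a pseudogene under a symbol without that ending, was kept. This rule took 48 of the 20026 genes measured, of which 19 were UDP-glucuronosyltransferases (UGT), 11 were sulfotransferases (SULT) and 18 were cytosolic or mitochondrial glutathione S-transferases (GST). The study edited the gene of miR-23a or of miR-27a, which lie in a shared cluster, in the HepG2 liver cancer cell line and sequenced the RNA of the edited cells.

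There were 6 libraries in 3 groups of 2. Scr cells were HepG2 cells given the Cas9 vector without a miRNA guide and carried no knockout. Cells of the miR-23a KO group and of the miR-27a KO group were HepG2 cells edited with Cas9 and paired guide RNAs against that miRNA gene, from colonies grown after single cells had been sorted. The sample labels number the libraries of each group but do not say whether these came from separate clones or cultures, so the p-values measure only the spread between these samples, which may be technical. Reads of the miRNA genes themselves were not examined, so a library was assigned to its group by title only. Rounded counts summed to 14891239 and 14405250 (Scr), 16515261 and 15930779 (miR-23a KO) and 15850589 and 15947308 (miR-27a KO). In bulk RNA, fewer cells that express a gene and less of its RNA in each cell cannot be told apart.

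Glucuronosyltransferases transfer glucuronic acid from UDP-glucuronic acid, sulfotransferases transfer a sulfonate group from the donor PAPS, and glutathione transferases join glutathione to electrophiles. The liver is the main site of these reactions, and their products leave the hepatocyte through efflux pumps into bile or blood. A miRNA lowers its targets by pairing of its seed, bases 2 to 8, with sites that lie mostly in the 3'-UTR of the messenger.

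The mature miRNAs whose genes were edited are shown because the seed sites described further on are read from them. Both come from the minus strand of chromosome 19 in RefSeq (GRCh38.p14), at chr19:13836595-13836615 for miR-23a-3p and chr19:13836447-13836467 for miR-27a-3p. Capitals mark the seed.
miR-23a-3p: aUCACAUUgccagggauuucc
miR-27a-3p: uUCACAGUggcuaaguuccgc
The 7-base DNA match to the seed is AATGTGA for miR-23a-3p and ACTGTGA for miR-27a-3p.

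The HepG2 label was checked against marker genes. All 9 hepatocyte markers were detected in each library, and together they held 29937 and 37154.5 CPM (counts scaled to library size) in Scr, 31575 and 32798 CPM in miR-23a KO, and 25775 and 25707 CPM in miR-27a KO. Their most abundant gene was *SERPINA1* in 4 libraries and *ALB* in the other 2. Markers of endothelium and fibroblasts were near 0. The 2 endothelial genes summed to at most 6.57 CPM with *PECAM1* the most abundant, and the fibroblast gene *COL1A1* to at most 0.139 CPM.

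Most of the conjugation messenger of Scr cells belonged to a few enzymes. Per length, as mean TPM (counts scaled to transcript length and library size) of the 2 Scr libraries, the most abundant was *SULT1A1*, which sulfonates phenols, at 725 TPM. It was followed by *SULT1A3* at 366 TPM, *GSTO1*, an omega-class enzyme with thiol transferase activity, at 352 TPM, and *SULT1A4* at 340.4 TPM. *SULT1A3* and *SULT1A4* are near-identical copies that sulfonate dopamine and other catecholamines. Both, and *GSTK1*, were named after their values were seen. *GSTK1*, the kappa-class enzyme of mitochondria and peroxisomes, stood at 193 TPM and *SULT2A1*, which sulfonates DHEA and bile acids, at 113 TPM. Of the UGTs, *UGT2B7*, a broad enzyme that also glucuronidates morphine, was the most abundant at 55.9 TPM, and *UGT1A1*, the bilirubin enzyme, had the highest mean of the UGT1A genes at 13.1 TPM, although *UGT1A6* was above it in Scr replicate 1 (5.11 against 4.91 TPM). *GSTT1* had no transcript length in the annotation and so no place in this order. The order of neighbours was not fixed by these data: the Scr libraries spanned 316 to 417 TPM for *SULT1A3*, 317 to 387 TPM for *GSTO1* and 296 to 385 TPM for *SULT1A4*, so these 3 did not separate.

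**Figure D1:**
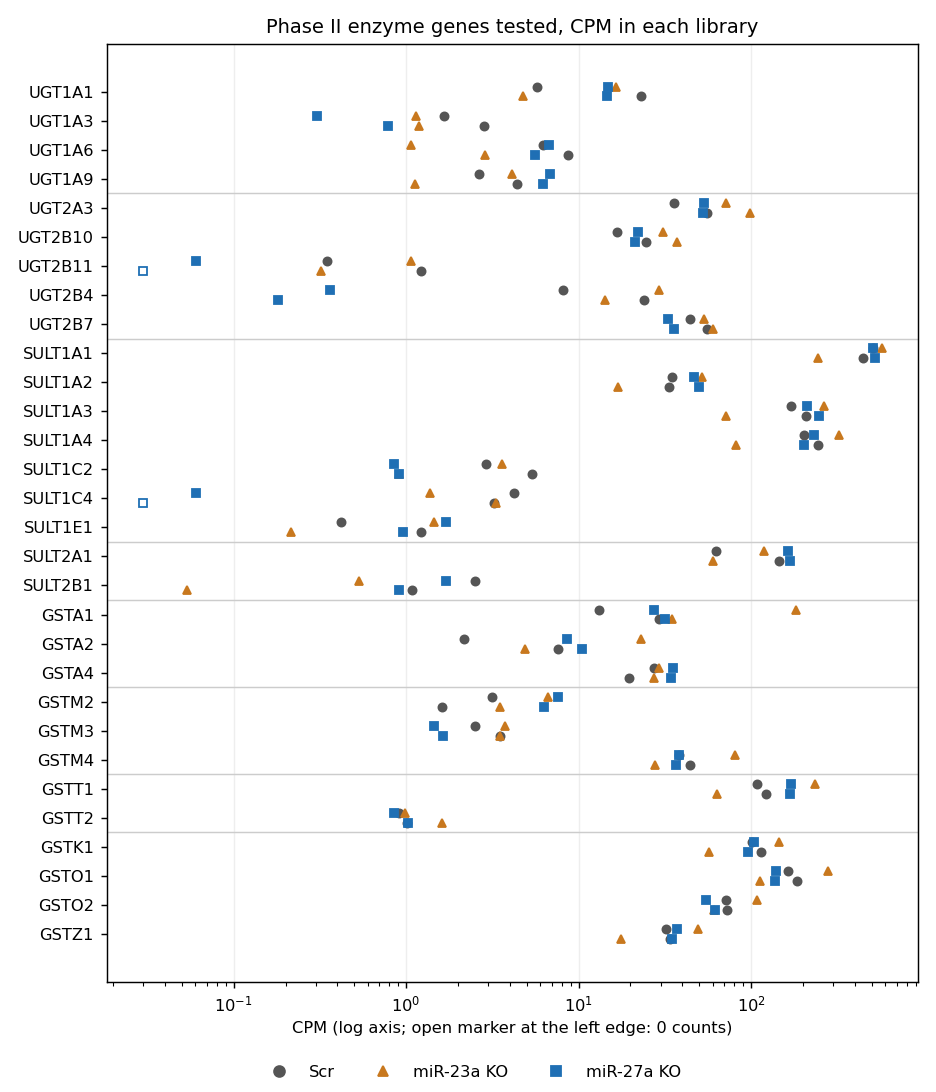
CPM of the 30 phase II genes tested in any comparison, 1 marker per library on a log axis, grouped by family, with open markers at the left edge for 0 counts. *SULT1A1* lies above 200 CPM in each library, while *UGT2B4* and *SULT1C4* in miR-27a KO lie below 0.4 CPM.

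At the other end, 14 of the 48 genes stayed under 10 counts in every library, and 18 did not pass the filter on low counts in any comparison, so that no test was made for them. The untested genes were 3 of 7 UGT1A, 4 of 9 UGT2, all 3 UGT3 and UGT8, 1 of 8 SULT1, 1 of 3 SULT2 and SULT6, 1 of 4 GSTA, 2 of 5 GSTM, 2 of 4 GSTT and 1 of 5 other GST genes. *UGT3A2*, which uses other sugars than glucuronic acid, led its family only by mean TPM in Scr, with 1 count in 1 Scr library and 0 in all others. *UGT8*, which galactosylates ceramide, had 1 count in 1 Scr library and 2 counts in 1 miR-23a KO library. *GSTP1*, the pi-class enzyme that is low in adult hepatocytes and was named after its values were seen, had at most 6 counts in any library.

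The libraries of a group differed from each other by very different amounts. Over members with at least 40 counts in a pair, 6 of 27 lay more than 2-fold apart within Scr, 17 of 26 within miR-23a KO and 0 of 24 within miR-27a KO. Over all such genes the shares were 6.48%, 47.6% and 1.29%. Summed over all 48 members, the Scr libraries held 1680.1 and 1929 CPM, the miR-27a KO libraries 1937 and 1957 CPM, and the miR-23a KO libraries 2698 and 1118 CPM. So in CPM the total for miR-23a KO was above every other library in replicate 1 and below every other library in replicate 2. In TPM the totals were 2719.9 in replicate 1, within the range of the other groups (2318 to 2922), and 1976 in replicate 2, again the lowest. Of 29 members with a GC value, 17 were over 2-fold higher in miR-23a KO replicate 1 and 2 were over 2-fold higher in replicate 2. All 6 libraries were kept.

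In miR-27a KO cells, the planned edgeR test called 3 conjugation enzymes lower than in Scr and none higher. These were *UGT2B4*, which glucuronidates bile acids and catechol estrogens, and the neighbouring sulfotransferase genes *SULT1C4* and *SULT1C2*, whose enzymes act on phenols and aromatic hydroxylamines. Their messengers dropped by 59.3-fold, 124-fold and 4.77-fold in counts per library size. The call required an adjusted p under 0.05 in edgeR's quasi-likelihood test over all 13820 genes and a fold change over 1.5, which 3 of the 29 members tested met, all lower, beside 6.74% of all genes lower, 3.52% higher and 10.3% in either direction. At an adjusted p under 0.001, the threshold of the study, no member was called in this edgeR test, beside 0.0289% of all genes. Below 0.001 with other settings were *UGT2B4* (7.53e-15) and *SULT1C4* (0.000312) in DESeq2, and *UGT2B4* (0.000229) in edgeR with the replicate number as a block. With GC content and length corrected as well, the block gave 5.86e-05 for *UGT2B4* and 0.000632 for *SULT1C4*. At an unadjusted p under 0.05, the planned edgeR test had 5 members higher and 8 lower, beside 13.8% and 18.4% of genes. DESeq2 called 4 members, *GSTM2* (higher) in addition to the 3 above, of 31 tested, beside 1573 of 14463 genes. With edgeR the count of members was 2 with either miR-27a KO library left out, 2 with no filter, 0 in the fit of all 6 libraries and 10 with either Scr library left out, where up to 1908 genes were called higher and 1808 lower. Besides genes whose own passages say so, the 10 held *GSTA4*, *GSTM3* and *UGT2B11* without Scr replicate 1 and *UGT1A9* without replicate 2. *UGT1A1* was called in both of these fits in opposite directions, at log2 fold changes of -0.64 and 1.36. The median log2 fold change of the members tested was 0.03 (15 higher, 14 lower) and that of all genes 0.01. Of the 29 members tested, 10 had their lowest miR-27a KO library above the highest Scr library. For 9 of the 29 the reverse held, beside 32.4% of genes above and 31.9% below. The median absolute log2 fold change was 0.47 over the members and 0.32 over all genes.

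In miR-23a KO cells no conjugation enzyme was called against Scr. Of 13786 genes tested by edgeR's quasi-likelihood test, 0 were called (0%), and among the 30 members tested 1 was higher and 2 were lower at an unadjusted p under 0.05, beside 0.856% and 1.55% of genes. DESeq2 called 0 of 35 members tested, beside 64 of 15638 genes. The edgeR count depended on the libraries: leaving out 1 of them gave up to 1697 genes higher and 933 lower, and up to 6 members. The members' median log2 fold change was 0.05 (17 higher, 13 lower), against 0.16 over all genes. Of the 30 members tested, 4 lay above Scr without overlap between the libraries (*GSTA1*, *GSTM2*, *UGT2A3* and *UGT2B10*). Without overlap, 3 of them lay below it (*SULT2B1*, *UGT1A6* and *UGT1A3*), beside 8.88% of genes above and 14.9% below. The biological coefficient of variation estimated by edgeR was 0.446 in this fit and 0.159 in that of miR-27a KO against Scr.

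The KO groups were also compared with each other, which asks for a difference between them without the Scr libraries that both comparisons above share. Of 13841 genes, 0 were called by edgeR (0%), and 1 member was higher and 3 lower in miR-27a KO at an unadjusted p under 0.05, beside 4.06% and 4.66% of genes. DESeq2 called 2 members, *UGT2B4* and *SULT1C4*, both lower in miR-27a KO, of 34 tested, beside 474 of 15274 genes. The edgeR result depended on single libraries and settings. Leaving out replicate 1 of miR-23a KO gave 21 called members and leaving out its replicate 2 gave 15, where up to 3719 genes were called higher and 3584 lower. With all 6 libraries it called 109 genes higher and 109 lower, and with the replicate number as a block 189 and 211. Both miR-27a KO libraries were above both miR-23a KO libraries for 5 of the members tested and below them for 9, beside 20.7% and 18.7% of genes. The members' median log2 fold change was -0.03, against -0.11 over all genes.

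**Figure D2:**
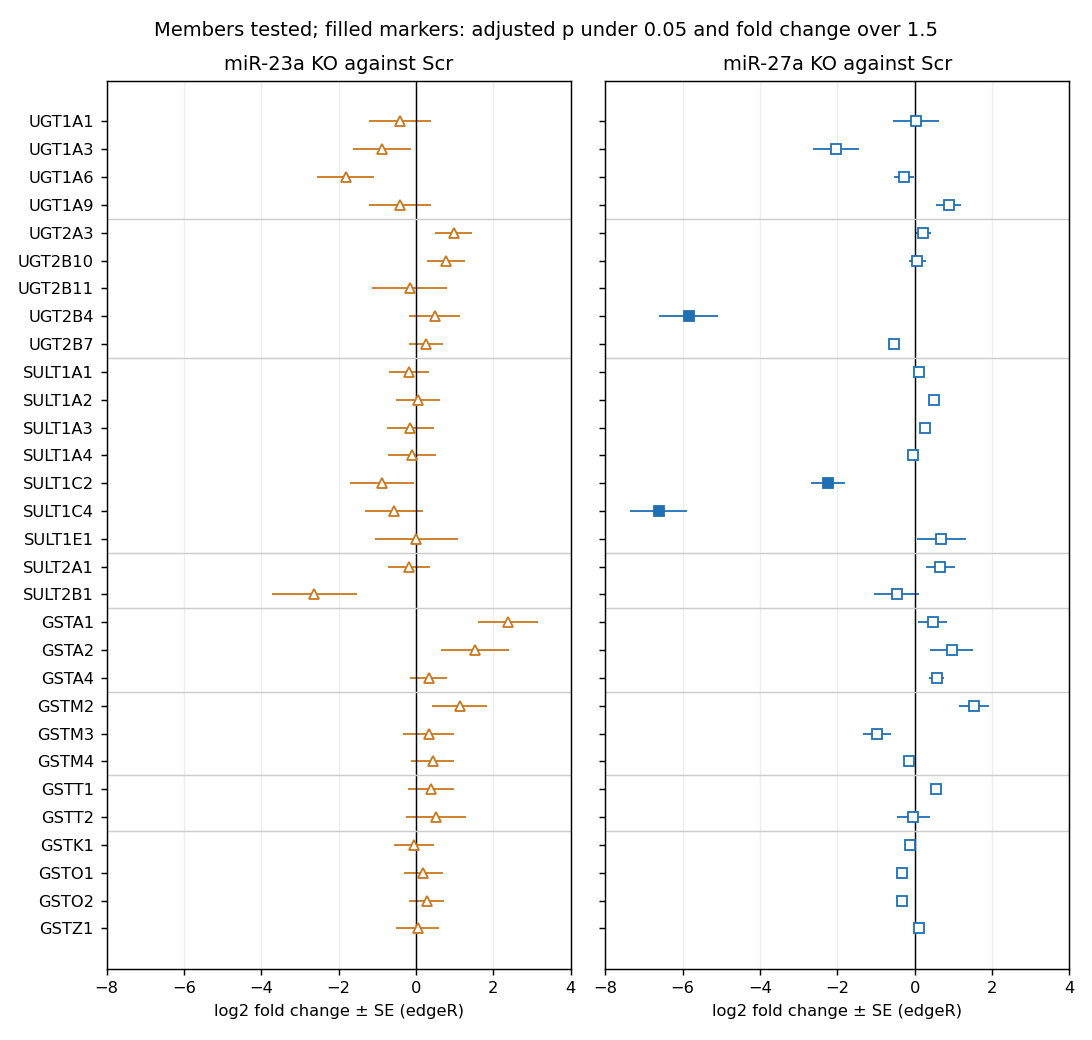
Log2 fold change with its standard error from edgeR for each phase II gene tested, miR-23a KO against Scr on the left and miR-27a KO against Scr on the right, with filled markers for genes called at an adjusted p under 0.05 and a fold change over 1.5. The 3 filled markers are *UGT2B4* (-5.84), *SULT1C4* (-6.62) and *SULT1C2* (-2.24) in miR-27a KO.

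Among the UGT2 genes, *UGT2B4* (gene 7363) separated miR-27a KO from both other groups. Its counts were 117 and 353 (Scr), 386 and 265 (miR-23a KO) and 6 and 3 (miR-27a KO). In CPM these were 8.14 and 23.9, 29.4 and 14.3, and 0.364 and 0.181, so both miR-27a KO libraries lay far below the other 4, while Scr and miR-23a KO overlapped. The log2 fold change in miR-27a KO was -5.84 (SE 0.77, adjusted p = 0.0149), lower in 2 of 2 libraries. The ratio of Scr to miR-27a KO was 59.3-fold, with a 95% interval (exact Clopper-Pearson) of 30.9- to 130-fold that covers counting error only. Against miR-23a KO the ratio was 75.5-fold (39.5- to 166-fold), with a log2 fold change of -6.29 and an adjusted p of 0.0961 in edgeR, so this difference was not called there. Leaving out miR-27a KO replicate 1 made it a call (log2 fold change -6.85), as did leaving out miR-23a KO replicate 1 (-5.67) or replicate 2 (-6.72). Leaving out miR-27a KO replicate 2 (-5.87) did not, nor did edgeR with GC content and length corrected (adjusted p = 0.0501). With all 6 libraries in 1 fit, edgeR did not call *UGT2B4* against Scr (adjusted p = 0.0534) but called it against miR-23a KO (0.0248), as did the replicate number as a block (2.88e-09).

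The other tested UGT2 genes were not called in miR-27a KO with the planned test. *UGT2B7* had 44.4 and 55.2 CPM (Scr), 53.3 and 60.4 (miR-23a KO) and 33.0 and 36.0 (miR-27a KO). Its miR-27a KO libraries were the lowest of the 6, at a log2 fold change of -0.53 (SE 0.14, adjusted p = 0.0661), which missed the threshold. It was called with GC content and length corrected (log2 fold change -0.69, adjusted p = 0.0138), with the replicate number as a block as well (0.00736) and without Scr replicate 1 (0.000877). *UGT2B10*, which glucuronidates amines such as nicotine, had 16.7 and 24.7 CPM (Scr), 30.7 and 37.2 (miR-23a KO) and 22.2 and 21.3 (miR-27a KO). *UGT2A3* had 35.8 and 55.4 CPM (Scr), 71.7 and 98.1 (miR-23a KO) and 53.3 and 52.4 (miR-27a KO). For both genes the miR-23a KO libraries were the highest and miR-27a KO lay within the Scr range. Their log2 fold changes in miR-23a KO were 0.79 (SE 0.49) for *UGT2B10* and 0.97 (SE 0.48) for *UGT2A3*, each with an adjusted p of 0.9996 by edgeR. With GC content and length corrected these shrank, to as little as 0.44 and 0.37.

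The remaining UGT2 genes were close to the limit of detection. *UGT2B11*, named after its values were seen, had 5 and 18 counts (Scr), 14 and 6 (miR-23a KO) and 1 and 0 (miR-27a KO). That made it 26.1-fold lower in miR-27a KO than in Scr, with a counting interval of 4.24- to 1075-fold; it was too low for the test of this comparison. *UGT2B15*, an androgen enzyme, had 2 counts in each Scr library, 0 and 2 (miR-23a KO) and 0 in either miR-27a KO library. *UGT2B28*, of the same role, had 1 and 0, 2 and 4, and 0 and 0 counts in the same order. *UGT2A2* and *UGT2B17*, named after their values were seen, had at most 3 counts in any library.

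*UGT2B4* lies at chr4:69480165-69526014 on the minus strand (GRCh38, GENCODE release 29). Within 500 kb on either side the table held 7 other genes, 6 of them conjugation enzymes. Of these, 2 were tested in miR-27a KO, *UGT2B7* and the estrogen sulfotransferase *SULT1E1* (named after its values were seen), and 0 were called by edgeR at this threshold. *SULT1E1* had 6 and 18 counts (Scr), 19 and 4 (miR-23a KO) and 28 and 16 (miR-27a KO), so its groups overlapped, at a log2 fold change of 0.69 (SE 0.64). *UGT2B7*, the untested *UGT2B11* and the only other gene that is no member lay below Scr in both miR-27a KO libraries.

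*SULT1C4* (gene 27233) gave the largest fitted fall of any member. It had 61 and 48 counts (Scr), 18 and 62 (miR-23a KO) and 1 and 0 (miR-27a KO). In CPM these were 4.24 and 3.24, 1.37 and 3.34, and 0.0606 and 0, so miR-27a KO lay below all other libraries while miR-23a KO overlapped Scr. The log2 fold change was -6.62 (SE 0.74, adjusted p = 0.0107 by edgeR), lower in 2 of 2 libraries. Since miR-27a KO held 1 count in all, the size is poorly bounded: the ratio was 124-fold, with a counting interval of 21.7- to 4929-fold. Against miR-23a KO it was 83.5-fold (14.6- to 3339-fold) and not called (adjusted p = 0.176), but leaving out miR-23a KO replicate 1 (0.00069) or replicate 2 (0.00252) gave a call. Leaving out miR-27a KO replicate 1 (0.314) or replicate 2 (0.912) did not. The replicate number as a block called it (0.00126) and the fit of all 6 libraries did not (0.0525). In the fit of all 6 libraries its adjusted p against Scr was 0.0665, short of a call.

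*SULT1C2* (gene 6819) fell less. It had 42 and 80 counts (Scr), 47 and 17 (miR-23a KO) and 14 and 15 (miR-27a KO), or 2.92 and 5.41, 3.58 and 0.916, and 0.849 and 0.904 CPM. The miR-27a KO libraries were close together below Scr, and miR-23a KO replicate 2 was almost as low as they were. The log2 fold change in miR-27a KO was -2.24 (SE 0.45, adjusted p = 0.0353), lower in 2 of 2 libraries. This call was the least firm of the 3. It was lost without miR-27a KO replicate 1 (adjusted p = 0.176) or replicate 2 (0.188), with no filter on low counts (0.06) and in the fit of all 6 libraries (0.487). Against miR-23a KO its log2 fold change was -1.34 and not called. Leaving out miR-23a KO replicate 2 gave a call (log2 fold change -2.02), while leaving out miR-23a KO replicate 1 brought it to -0.06.

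**Figure D3:**
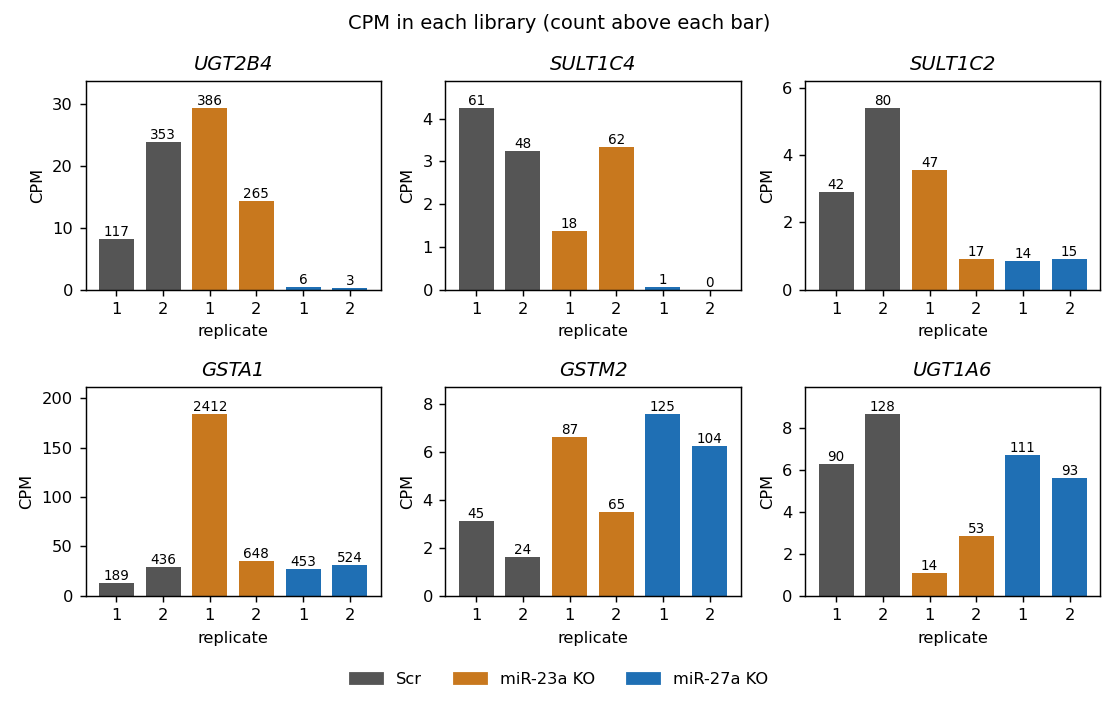
CPM in each library for 6 phase II genes as bars, with the count above each bar, for Scr (grey), miR-23a KO (orange) and miR-27a KO (blue). *UGT2B4* has 6 and 3 counts and *SULT1C4* 1 and 0 counts in miR-27a KO, while *GSTA1* reaches 2412 counts in miR-23a KO replicate 1.

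*SULT1C2* (chr2:108288639-108309915) and *SULT1C4* (chr2:108377911-108388057) lie on the plus strand of chromosome 2, 68 kb apart. The table held 8 other genes within 500 kb of the pair, none of them a conjugation enzyme. Of these, 5 were tested and 0 called in miR-27a KO by edgeR, and all 5 had a log2 fold change of 0 or above. *LIMS1*, for an adhesion adaptor, had 380 and 529 counts in Scr and 753 and 695 in miR-27a KO (log2 fold change 0.49, adjusted p = 0.12), and *RANBP2*, for a nucleoporin, had 154 and 359 against 277 and 305 (0.00).

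Promoters of both genes are shown because these neighbours fell together. They run from 250 bases before to 50 bases after the start in RefSeq (GRCh38.p14), on the plus strand, at chr2:108288645-108288944 for *SULT1C2* and chr2:108377704-108378003 for *SULT1C4*. Capitals mark matches, on either strand, to the antioxidant response element core TGACNNNGC, the TATA box TATAAA or the HNF1 half-site GTTAAT.
SULT1C2: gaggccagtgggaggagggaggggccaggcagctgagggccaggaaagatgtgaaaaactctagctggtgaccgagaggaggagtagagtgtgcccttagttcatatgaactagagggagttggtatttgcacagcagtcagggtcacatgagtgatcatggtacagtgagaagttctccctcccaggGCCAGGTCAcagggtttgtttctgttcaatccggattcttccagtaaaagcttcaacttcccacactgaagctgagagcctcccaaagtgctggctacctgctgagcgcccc
SULT1C4: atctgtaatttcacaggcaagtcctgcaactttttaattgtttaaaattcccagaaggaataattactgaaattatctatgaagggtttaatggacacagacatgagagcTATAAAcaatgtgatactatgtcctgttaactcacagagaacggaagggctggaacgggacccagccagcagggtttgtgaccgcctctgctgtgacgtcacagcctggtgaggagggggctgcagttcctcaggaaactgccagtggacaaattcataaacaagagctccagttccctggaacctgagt
The *SULT1C2* window held 1 antioxidant response element match, at -62, and the *SULT1C4* window 1 TATA match, at -140, with no motif shared between them. Among the 40 members with a promoter entry, a TATA match was found in 25%, beside 12% of all 27305 promoters, an HNF1 half-site in 17.5%, beside 6.89%, and an antioxidant response element match in 22.5%, beside 13.6%. *GSTA1* and *GSTA2* each had a TATA match at -30 and an HNF1 half-site at -180. A match is a description of the letters, and binding was not measured.

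The abundant SULT1A genes did not share the fall of *SULT1C2* and *SULT1C4*. *SULT1A1* had 507 and 448 CPM (Scr), 572 and 245 (miR-23a KO) and 512 and 527 (miR-27a KO). The miR-27a KO libraries lay just above Scr, at a log2 fold change of 0.12 (SE 0.10, adjusted p = 0.444), and the miR-23a KO libraries lay on either side of it. *SULT1A2*, a phenol sulfotransferase of the same cluster that was named after its values were seen, had 34.6 and 33.3 CPM (Scr), 52.1 and 16.9 (miR-23a KO) and 46.5 and 49.9 (miR-27a KO). Its log2 fold change of 0.50 in miR-27a KO passed the adjusted p (0.0379) but not the fold change of 1.5. With GC content and length corrected it was called, with or without the block (log2 fold change 0.78). *SULT1A3* and *SULT1A4* share 100% and 98.3% of their 75-base windows with other transcripts, so reads may be split between them, and they were also summed. The sum was 375 and 452 CPM (Scr), 590.4 and 154 (miR-23a KO) and 444 and 450.2 (miR-27a KO), with log2 fold changes of -0.13 (SE 0.62) and 0.11 (SE 0.11) and no call by edgeR. On their own, both were called in miR-23a KO without replicate 1 (-1.37 and -1.40).

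The hydroxysteroid sulfotransferases were called in neither KO with the planned test. *SULT2A1* had 63.0 and 146 CPM (Scr), 119 and 60.2 (miR-23a KO) and 165 and 168 (miR-27a KO). Both miR-27a KO libraries were above Scr, whose own libraries lay more than 2-fold apart, and the log2 fold change was 0.67 (SE 0.37, adjusted p = 0.275). It was called with the replicate number as a block (adjusted p = 0.0461), but not with GC content and length corrected as well. Without Scr replicate 2 it was also called (log2 fold change 1.40), but with other libraries left out the log2 fold change was as low as 0.19. *SULT2B1*, which sulfonates cholesterol and pregnenolone, had 36 and 16 counts (Scr), 7 and 1 (miR-23a KO) and 28 and 15 (miR-27a KO). Its miR-23a KO libraries were the lowest of the 6, with a log2 fold change of -2.62 (SE 1.09, unadjusted p = 0.0424, adjusted p = 0.9996 by edgeR).

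The UGT1A genes need a reading of their own, because each has its own first exon and all share the remaining exons. Between 58.7% (*UGT1A6*) and 67.4% (*UGT1A5*) of the 75-base windows of their transcripts also occurred in another gene, so how reads were divided among these 7 genes is uncertain. Summed over all of them, the counts were 248 and 587 (Scr), 320 and 195 (miR-23a KO) and 480 and 457 (miR-27a KO). The Scr libraries thus lay on either side of both miR-27a KO libraries. The summed log2 fold change was -0.67 (SE 0.62) in miR-23a KO and -0.01 (SE 0.38) in miR-27a KO, with no call by edgeR, and the KO groups differed by 0.70 (SE 0.50, adjusted p = 0.799).

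Within that sum, single UGT1A genes were placed differently. *UGT1A1* had 83 and 341 counts (Scr), 217 and 89 (miR-23a KO) and 246 and 244 (miR-27a KO), and overlapped in all groups. *UGT1A6*, for planar phenols, had 90 and 128 counts (Scr), 14 and 53 (miR-23a KO) and 111 and 93 (miR-27a KO). It was lowest in both miR-23a KO libraries, with a log2 fold change of -1.82 (SE 0.75, unadjusted p = 0.0405, adjusted p = 0.9996 by edgeR), and made up 4.38% and 27.2% of the UGT1A counts there against 36.3% and 21.8% in Scr. Without miR-23a KO replicate 2 it was called (log2 fold change -2.80, adjusted p = 0.0136). *UGT1A3*, which also acts on bile acids, had 24 and 42 counts (Scr), 15 and 22 (miR-23a KO) and 5 and 13 (miR-27a KO). Both KO groups lay below Scr, at log2 fold changes of -0.88 (SE 0.75) and -2.04 (SE 0.60, adjusted p = 0.0829), neither of them called. In miR-27a KO it was called with the replicate number as a block (0.0383), with GC content and length corrected as well (0.0272) and without Scr replicate 1 (0.0212). *UGT1A9*, which glucuronidates propofol, had 38 and 65 counts (Scr), 54 and 21 (miR-23a KO) and 112 and 103 (miR-27a KO), where its log2 fold change was 0.88 (SE 0.32, adjusted p = 0.136). *UGT1A7*, named after its values were seen and too low to be tested, had 13 and 6 counts in Scr and 0 in all 4 KO libraries. With the KO group set to a floor of 3 counts, this was 6.88-fold lower in miR-23a KO and 7.19-fold lower in miR-27a KO. These ratios take the Scr counts as exact and are no lower bounds. *UGT1A7* shares 62.5% of its windows with other genes, so its Scr counts are themselves uncertain.

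**Figure D4:**
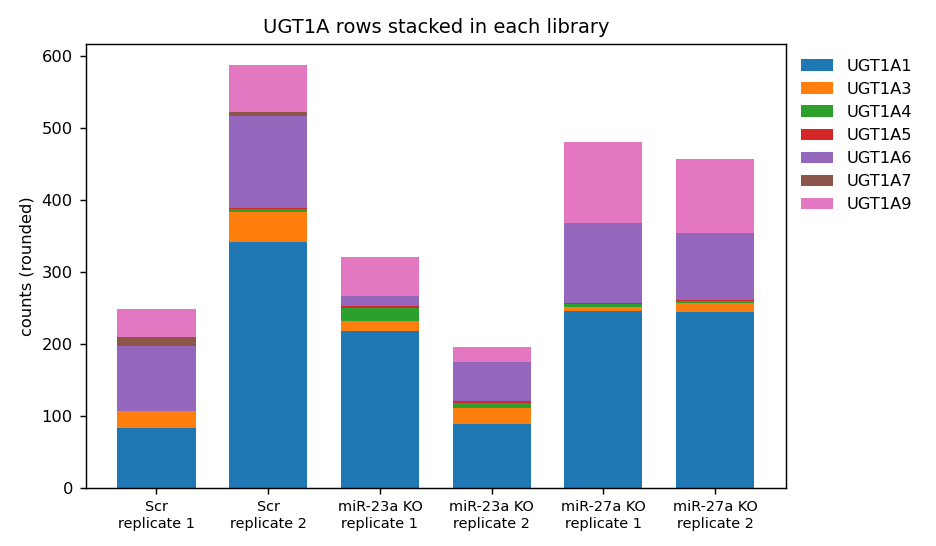
Rounded counts of the 7 UGT1A genes stacked for each of the 6 libraries, 1 colour per gene. The stacks reach 248 and 587 counts (Scr), 320 and 195 (miR-23a KO) and 480 and 457 (miR-27a KO).

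No glutathione transferase was called in either KO with the planned test. *GSTA1*, the main alpha-class enzyme of liver, had 189 and 436 counts (Scr), 2412 and 648 (miR-23a KO) and 453 and 524 (miR-27a KO). In CPM that was 13.1 and 29.5, 184 and 34.9, and 27.5 and 31.6, so the placement of miR-23a KO above Scr was wide in replicate 1 and narrow in replicate 2. For miR-23a KO the log2 fold change was 2.38 (SE 0.78, unadjusted p = 0.0156, adjusted p = 0.9996 by edgeR). Without miR-23a KO replicate 1 it was 0.75, and without replicate 2 it was 3.10 and called (adjusted p = 0.00105). *GSTA2*, its neighbour with the same enzymatic range, moved with the same library, at 31 and 112 counts (Scr), 301 and 91 (miR-23a KO) and 141 and 173 (miR-27a KO). Its miR-23a KO replicate 2 lay within the Scr range. Without replicate 1 its log2 fold change went from 1.53 to 0.05, and without replicate 2 it was 2.23 and called (adjusted p = 0.0232). In miR-27a KO neither gene was called with the planned test. Without Scr replicate 2 both were called, at log2 fold changes of 1.17 for *GSTA1* and 2.13 for *GSTA2*. Without Scr replicate 1 neither was, at 0.0046 and 0.33. *GSTA1* shares 15.9% of its windows with *GSTA2*, so some reads may have been split between them.

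*GSTA4*, which clears 4-hydroxynonenal, was steadier. It had 27.4 and 19.6 CPM (Scr), 29.3 and 27.3 (miR-23a KO) and 35.4 and 34.5 (miR-27a KO). The miR-27a KO libraries were the highest of the 6, at a log2 fold change of 0.57 (SE 0.19, adjusted p = 0.105).

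Of the mu class, *GSTM2* was placed above Scr in both KO groups. It had 45 and 24 counts (Scr), 87 and 65 (miR-23a KO) and 125 and 104 (miR-27a KO). In CPM that was 3.13 and 1.62, 6.62 and 3.50, and 7.58 and 6.27, so each of the 4 KO libraries was above both Scr libraries. The log2 fold change was 1.13 (SE 0.71) in miR-23a KO and 1.54 (SE 0.38, adjusted p = 0.0569) in miR-27a KO, just short of a call in edgeR, while DESeq2 called it (adjusted p = 0.0232), as did edgeR without Scr replicate 1 (0.0018) or replicate 2 (0.01). It was not called without miR-27a KO replicate 1 (0.298) or replicate 2 (0.2), or in the fit of all 6 libraries (0.51). It was called with the replicate number as a block (0.0211), with GC content and length corrected (0.0253) and with both (0.00526). Its transcript shares 40.9% of its windows with *GSTM1* (named after its values were seen), which had at most 2 counts in any library. Some of its windows also occur in *GSTM4*, which had 516 to 1064 counts, so reads may have been split between them. *GSTM3* had 36 and 52 counts (Scr), 49 and 65 (miR-23a KO) and 24 and 27 (miR-27a KO), lowest in miR-27a KO at a log2 fold change of -0.97 (SE 0.36, adjusted p = 0.14). *GSTM4*, the most abundant mu gene, had 38.3 and 44.0 CPM (Scr), 81.0 and 27.8 (miR-23a KO) and 38.2 and 36.6 (miR-27a KO). Its log2 fold changes were 0.44 (SE 0.56) and -0.14 (SE 0.12). In miR-23a KO it was called without replicate 2 (0.98), and without replicate 1 it had the opposite sign (-0.52).

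No gene of the theta, omega, kappa and zeta classes was called in miR-27a KO with the planned test. *GSTT1*, a theta-class enzyme that acts on halogenated small molecules, was named after its values were seen, with 108 and 123 CPM (Scr), 236 and 63.3 (miR-23a KO) and 171 and 168 (miR-27a KO). Its log2 fold change of 0.55 (SE 0.09) in miR-27a KO had an adjusted p of 0.0256 but a fold change under 1.5, and was therefore not called. Without Scr replicate 2 it was called (0.65). In miR-23a KO it was called without replicate 2 (1.03), and without replicate 1 it was -0.83. *GSTT2* had 13 and 15 counts (Scr), 13 and 30 (miR-23a KO) and 14 and 17 (miR-27a KO), with a log2 fold change of -0.04 (SE 0.43) in the last, and shares 83.9% of its windows with *GSTT2B*. *GSTO1* had 165 and 185 CPM (Scr), 279 and 113 (miR-23a KO) and 140.0 and 138 (miR-27a KO), with a log2 fold change of -0.34 (SE 0.09, adjusted p = 0.0666) in the last. In miR-23a KO it was called without replicate 2 (0.67), and without replicate 1 it was -0.59. The remaining tested genes of these classes, *GSTK1*, *GSTO2* and *GSTZ1* (named after their values were seen), had log2 fold changes between -0.32 and 0.13 in miR-27a KO and none was called.

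Seed sites were counted without a test of the difference from other genes. Reading the longest 3'-UTR annotated per gene, 2 of 47 members held a miR-23a-3p match (4.26%, beside 19.3% of all genes) and 5 of 47 held one for miR-27a-3p (10.6%, beside 16.6%). The members' 3'-UTRs had a median of 522 bases against 1206 over all genes, and the counts were not corrected for length. The sites of 5 members are shown on the strand of the gene (GRCh38, GENCODE release 29), with the site in capitals. They lie at chr4:69480708-69480714 (minus strand) for *UGT2B4*, chr4:69112653-69112659 (plus) for *UGT2B7*, chr4:69294726-69294732 (plus) for *UGT2B28*, chr1:109708820-109708826 (plus) for *GSTM2* and chr4:68831152-68831158 (plus) for *UGT2B10*.
UGT2B4, miR-27a-3p: cctgtgtggcaACTGTGAtattcatcatc
UGT2B7, miR-27a-3p: tctgtgtggcaACTGTGAtatttatcgtc
UGT2B28, miR-27a-3p: cctgtgtggcaACTGTGAtatttgtcgtc
GSTM2, miR-27a-3p: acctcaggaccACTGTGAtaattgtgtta
UGT2B10, miR-23a-3p: acttatattgaAATGTGAtcatggctcac
The other sites were those of *UGT8* for miR-27a-3p and *UGT2B15* for miR-23a-3p. For *UGT2B4* and *UGT2B7* the site is in the 3'-UTR of another annotated transcript and in the coding sequence of the transcript used for their length. That of *GSTM2* is not in its main transcript and lies within the annotated span of *GSTM1* (chr1:109687814-109709039). Which transcript the cells made was not measured.

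Of the members with a miR-27a-3p site, *UGT2B4* fell in miR-27a KO, and *UGT2B7* (-0.53) and *GSTM2* (1.54) were not called with the planned test. *UGT2B28* and *UGT8* were not tested. Of those with a miR-23a-3p site, *UGT2B10* was not called in miR-23a KO (0.79) and *UGT2B15* was not tested. Because the paper reports less miR-27a-3p in its miR-23a KO clones too, the miR-27a-3p sites were also read there. In miR-23a KO, *UGT2B4* (0.49), *UGT2B7* (0.26) and *GSTM2* (1.13) were not called.

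The genes around conjugation were read from lists, beside 10.3% of all genes called and 13.8% higher and 18.4% lower at an unadjusted p under 0.05. In miR-27a KO against Scr, 0 of the 10 genes that supply UDP-glucuronic acid, PAPS and glutathione were called by edgeR, with 2 higher and 1 lower at an unadjusted p under 0.05 and a median log2 fold change of 0.12. None of the 5 efflux pumps was called (median 0.09, 1 lower at an unadjusted p under 0.05), nor either of the 2 deconjugating enzymes (median -0.20, 0 at an unadjusted p under 0.05). None of the 16 regulators tested was called (median -0.19, from -0.75 to 1.43, 4 higher and 3 lower at an unadjusted p under 0.05). Of 9 other conjugating enzymes tested (median -0.01), 3 were higher and 2 lower at an unadjusted p under 0.05, and 1 was called. This was *HNMT*, the histamine methyltransferase, with 24.3 and 35.1 CPM (Scr), 22.98 and 54.8 (miR-23a KO) and 55.1 and 57.5 (miR-27a KO). It rose by a log2 fold change of 0.92 (SE 0.19, adjusted p = 0.0368) in miR-27a KO, higher in 2 of 2 libraries, and was not called without miR-27a KO replicate 1 (0.104) or replicate 2 (0.152), with no filter on low counts (0.0692) or in the fit of all 6 libraries (0.808).

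In miR-23a KO against Scr, edgeR called 0 genes of these lists. The medians were 0.14 for cofactor supply, 0.33 for other conjugating enzymes, 0.00 for deconjugating enzymes, -0.63 for efflux pumps and -0.13 for regulators, against 0.16 over all genes. At an unadjusted p under 0.05 there were 1 higher and 1 lower, the UDP-glucose enzyme *UGP2* (log2 fold change 1.35) and the efflux pump *ABCC4* (-2.27), both named after their values were seen. All 5 efflux pumps had a negative log2 fold change there, beside 5103 of 13786 genes. Of the 5, 4 lay below Scr without overlap, beside 14.9% of all genes. The other, *ABCC2* (named after its values were seen), had 118 and 338 CPM in miR-23a KO, on either side of Scr.

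Hepatocyte markers differed beside the 3 calls in miR-27a KO. Of 9, *ALB* (log2 fold change -2.59), *AFP* (-4.11) and *FGB* (-2.05) fell and *TF* (1.25) rose, each called by edgeR. Without miR-27a KO replicate 2, *TF* was not called (adjusted p = 0.0623), nor was it with GC content and length corrected (0.0749). In the fit of all 6 libraries only *AFP* was called (0.0366), and *ALB* (0.105), *FGB* (0.132) and *TF* (0.311) were not. *ALB* had 10426 and 15119.8 CPM (Scr), 7903 and 14614 (miR-23a KO) and 2089 and 2152 (miR-27a KO). Whether the change in these secreted liver proteins had a part in the fall of *UGT2B4*, *SULT1C4* and *SULT1C2* was not tested.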

How the data were processed

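For 6 RNA-seq libraries of HepG2 cells, the authors deposited 1 value per gene and library in columns named FPKM. From their size and the many whole numbers among low values, the deposited values were taken to be estimated counts. That reading is an assumption behind every count, CPM and test. The submitters' processing notes name HISAT, StringTie, Cufflinks and GATK without versions, and the genome build is not given in the sources used here. Values were rounded to whole counts, and 0 value columns were left unused. Total counts of 14405250 to 16515261 per library limit what low genes can show. Intervals cover counting error only, and floors (3 counts over a group) only that of the group at 0.

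Low counts were removed with filterByExpr, libraries were scaled by TMM, and each pair of groups was fitted across all genes in edgeR 4.0.16 under R 4.3.3 (functions glmQLFit and glmQLFTest), with Benjamini-Hochberg adjustment over all genes tested. DESeq2 1.42.0 was an alternative. The planned test for FPKM values, limma, was not run. CPM are TMM-scaled. TPM used the transcript lengths of GENCODE release 29, with 47 of the 48 members matched. Promoter and miRNA sequences came from RefSeq. Amino acid sequences were not used here, so sequence shared between genes was measured as identical 75-base windows of their transcripts. The steps were tested on simulated data.

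Genes were named by rule: members called in any comparison, the member with the highest TPM in Scr in each family, up to 5 rises and 5 falls per KO without overlap with Scr, members with a seed site, and called genes of the other lists. Genes named outside this rule were chosen after their values were seen. Members and lists were chosen with earlier results of these data known. Alternatives were another scaling, DESeq2, no filter, all 6 libraries in 1 fit, the replicate number as a block, loess correction (span 0.5, degree 2) of GC content and length, summed rows for genes that share sequence, an adjusted p under 0.001 and leaving out each library. The edited miRNA genes, their host transcript and TWIST1 were not analysed here.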

Additional observations from a re-analysis of the deposited data

How the results depend on the processing

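A log2 fold change kept its label when neither its sign nor its being called or not called changed. Across other settings 759 of 822 did so (27 stronger, 18 weaker, 18 reversed). With a library left out 268 of 376 did (60 stronger, 5 weaker, 43 reversed). Most were not called in the planned test, and one that stayed uncalled counts as kept whatever its size. The setting of an adjusted p under 0.001 reuses the planned log2 fold changes and cannot reverse them. These counts are therefore no measure of how firm a result is. The causes were not tested. When a group has 1 library left, it is assumed to vary like the other group. The FPKM alternative with another pseudocount was not run, because the values were taken to be counts.

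Genes called in miR-23a KO against Scr (0 with the planned test) were 5 higher and 59 lower with DESeq2, 10 lower with no filter, 3 lower with all 6 libraries, 7 higher and 62 lower with the replicate block, 4 lower with GC content and length corrected, and 3 higher and 24 lower with block and correction. In miR-27a KO against Scr they were 304 higher and 588 lower with no filter, 3 higher and 61 lower with all 6 libraries (members 0), and 2 higher and 2 lower at 0.001 (members 0). The block called 6 members (genes 624 higher, 1069 lower), the correction 6 and both 7. The share called higher went from 34.3% to 47.4% with the correction (706 higher, 785 lower), 48.6% with block and correction (854 higher, 902 lower) and 4.7% with all 6 libraries. In miR-27a KO against miR-23a KO they were 215 higher and 259 lower with DESeq2 (members 2), 109 and 109 with all 6 libraries (members 1), 189 and 211 with the block (members 2), 155 and 140 with the correction, and 371 and 338 with both (members 2). Replicate numbers only name samples: deviations of equal number correlated at 0.149 (Scr, miR-23a KO), 0.0103 (Scr, miR-27a KO) and 0.0173 (KO groups).

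Reversed log2 fold changes in miR-23a KO against Scr, with the correction and then with block and correction, were UGT2B7 -0.0681 and -0.076, SULT1A2 -0.0076 and -0.0415 (-0.13 with the block alone) and HNMT -0.27 and -0.29. In miR-27a KO against Scr they were GSTM4 0.11 and 0.12, GSTT2 0.20 and 0.20, UGT2B10 -0.0801 and -0.0736, SULT1A4 0.18 and 0.19, UGT1A1 -0.0198 with the correction, and the UGT1A sum 0.0034 with no filter and 0.0948 with the block.

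Leaving out each library, miR-23a KO against Scr gave 0 to 1697 genes higher, 4 to 933 lower and 0 to 6 members. Log2 fold changes ranged from -1.40 to 0.0588 (UGT1A sum), -0.12 to 1.47 (UGT2B4), -0.52 to 0.98 (GSTM4), -0.92 to 0.26 (SULT1A1), -0.76 to 0.56 (SULT2A1), -1.55 to 0.92 (UGT1A1), -0.59 to 0.67 (GSTO1), -1.59 to 0.22 (UGT1A9), -0.83 to 1.03 (GSTT1), -0.97 to 0.62 (SULT1A2), -1.37 to 0.48 (SULT1A3), -1.40 to 0.54 (SULT1A4), -1.22 to 1.00 (UGT2B11), -0.37 to 0.93 (HNMT) and -0.69 to 0.24 (ALB). miR-27a KO against Scr gave 82 to 1908 higher, 252 to 1808 lower and 2 to 10 members, with -0.48 to 0.72 (UGT1A sum), -0.17 to 0.10 (GSTT2), -0.64 to 1.36 (UGT1A1), -0.98 to 0.27 (SULT2B1), -0.0639 to 0.56 (UGT2A3), -0.18 to 0.38 (UGT2B10) and -0.16 to 0.10 (SULT1A4). miR-27a KO against miR-23a KO gave 47 to 3719 higher, 25 to 3584 lower and 0 to 21 members, with 0.21 to 1.44 (UGT1A sum), -1.12 to 0.43 (GSTM4), -0.14 to 1.09 (SULT1A1), -0.16 to 1.63 (UGT1A1), -1.01 to 0.31 (GSTO1), -1.28 to 0.96 (GSTA2), -0.48 to 1.43 (GSTT1), -0.12 to 1.52 (SULT1A2), -0.22 to 1.69 (SULT1A3) and -0.58 to 1.41 (SULT1A4).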
